A study of Mus musculus with 32 samples.

Results

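Brains of Dhcr7 knockout mouse embryos (KO, Dhcr7-/-) were compared with those of wild-type embryos (WT, Dhcr7+/+) at E16.5 (E marks the embryonic day), with 4 libraries per genotype. These 8 libraries are all those labelled E16.5 among the 32 libraries of the series, and all 55291 gene symbols of the deposited count table entered the comparison. Both groups were of strain C57BL/6J and differ in the labels only by genotype. Each library is polyadenylated RNA from embryonic brain, sequenced as paired reads. The labels give neither the sex nor the litter of an embryo, nor how the Dhcr7 allele was made. Nothing in them says that the 4 brains of a group came from separate litters, so the p-values measure only the spread between these libraries, part of which may be technical.

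Dhcr7 encodes 7-dehydrocholesterol reductase, the enzyme that turns 7-dehydrocholesterol into cholesterol at the end of cholesterol synthesis, and loss of its human counterpart causes Smith-Lemli-Opitz syndrome. The fetal brain makes most of its own cholesterol once the blood-brain barrier has formed. Cells sense sterols in the endoplasmic reticulum, where low sterol lets Scap carry the transcription factor SREBP-2 (encoded by Srebf2) to the Golgi for cleavage, and SREBP-2 then raises transcription of the synthesis enzymes and of genes for sterol uptake. The liver X receptors (LXR) are activated by oxysterols and by some synthesis intermediates, and they raise transcription of sterol efflux transporters such as Abca1 and Abcg1.

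The libraries held 13.96 to 17.88 M counts and counts for 25736 to 27177 genes, and 17328 genes had enough counts to be tested. Levels below are CPM, the reads of a gene scaled to the library total with TMM factors. Where a library has no read of a gene, counting error alone allows up to 3 reads, equal to 0.168 to 0.215 CPM. Ribosomal RNA took 3.75% of the counts of WT replicate 1 and 0.356 to 0.626% of those of the other 7. Xist, expressed from the inactive X chromosome, was between 1429 and 1782 CPM in 2 WT libraries (replicates 2 and 4) and 3 KO libraries (replicates 1, 2 and 3). In the other 3 libraries Xist was at most 5.62 CPM and the Y-linked gene Ddx3y at least 44.2 CPM, so this pattern was not balanced between the genotypes. Markers of the labelled tissue were present in every library: the 16 radial glia markers summed to 2196 to 2536 CPM and the 10 deep-layer projection neuron markers to 902.5 to 1300 CPM.

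The level of Dhcr7 was 69.1, 66.1, 63.7 and 61.3 CPM in WT replicates 1 to 4 and 18.1, 16.48, 17.6 and 18.3 CPM in KO replicates 1 to 4. All 4 KO libraries were far below every WT library, so each library matched its genotype label, and some transcript was still counted in KO brain. The log2 fold change, KO minus WT, was -1.88 (SE 0.0669, adjusted p = 1.37e-09 by edgeR's quasi-likelihood test with Benjamini-Hochberg adjustment over all tested genes, as for every adjusted p below).

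Past the threshold of an adjusted p under 0.05 were 8 genes, or 0.0462% of those tested. In KO 5 were higher (0.0289%), among them Acte1, Mvd and Sqle, and 3 were lower (0.0173%), namely Dhcr7, Abcg1 and Abca1. Apart from Acte1, the genes named here act in sterol synthesis or efflux. At an unadjusted p under 0.05 the same test gave 2001 genes (11.5%), with 860 higher (4.96%) and 1141 lower (6.58%). Of 16060 genes averaging 1 CPM or more, the 4 KO and 4 WT values did not overlap for 1084 (6.75%), with 444 higher (2.76%) and 640 lower (3.99%). The number past the threshold moved with single libraries. Leaving out WT replicate 2, 3 or 4 gave 14, 4 and 5 genes, and leaving out KO replicate 1, 2 or 3 gave 4, 4 and 3. It also moved with the method: DESeq2 called 150 of the 6382 genes to which it gave an adjusted p. With no filter on low counts edgeR called 233 of 34379 genes. In the 5 libraries with high Xist, a choice made after seeing the data, edgeR called 354 of 17625 genes. Counts of list members called by these settings, given below, are to be read beside these numbers.

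**Figure D1:**
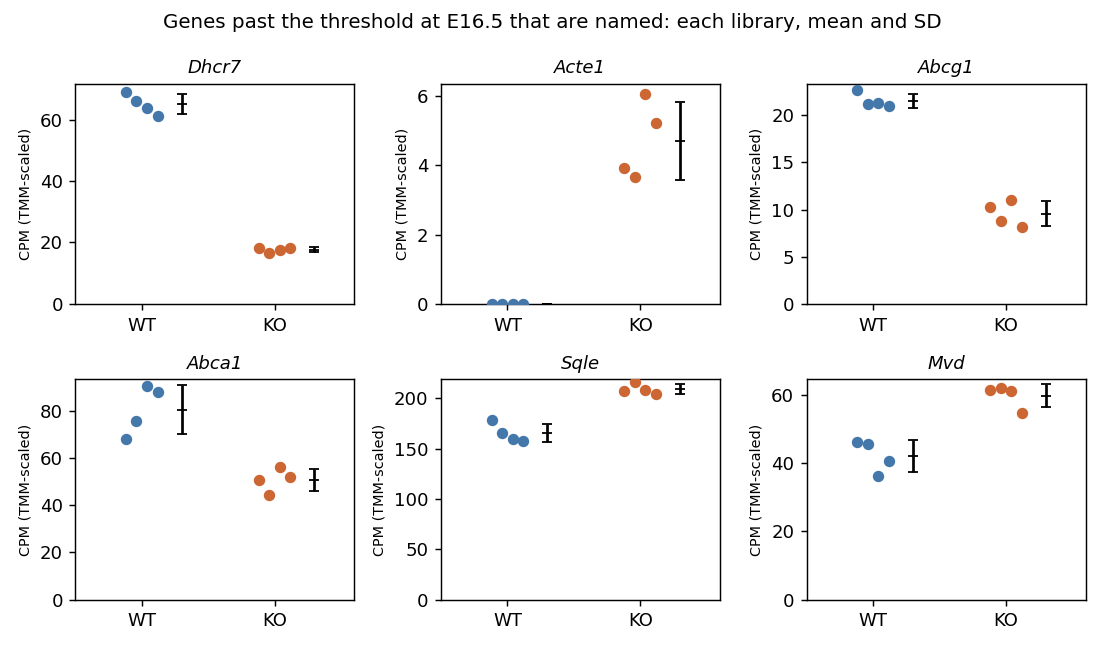
Level of 6 genes past the threshold in each E16.5 library (vertical axis: TMM-scaled CPM from 0; blue WT, orange KO; 1 point per library; the bar beside each group is the mean with its SD, n = 4). The groups do not overlap for any of these 6 genes, and Acte1 has 0 counts in every WT library.

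Acte1, an actin-related gene, had 0 counts in each of the 4 WT libraries and 70, 51, 93 and 90 counts in KO replicates 1 to 4. With the 4 WT libraries together set to a floor of 3 counts, its mean of 4.7 ± 1.12 CPM (SD, n = 4) in KO was at least 97.9-fold higher (adjusted p = 3.44e-05 by edgeR). Acte1 lies on chromosome 7 (build GRCm38, 143866838 to 143900046, plus strand), and its start is 18428 bases beyond the end of Dhcr7 (143823145 to 143848410, plus strand). The list of genes around Dhcr7 has 12 tested genes and includes Dhcr7 itself. Past the threshold were 2 of them, Dhcr7 and Acte1, beside 0.0462% of all tested genes. With no filter on low counts, and in the 5 libraries with high Xist, edgeR also called Shank2 of this list, higher in KO. At an unadjusted p under 0.05 in the main fit, 2 were higher and 2 lower, beside 4.96% and 6.58% of all genes. In this list 5 genes were higher and 7 lower, with a median log2 fold change of -0.03. Nadsyn1, the NAD synthetase gene beside Dhcr7, was at 8.19 ± 0.273 CPM in WT brain and 7.83 ± 0.354 CPM in KO brain (SD, n = 4), which the test did not separate (adjusted p = 0.855 by edgeR).

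Among the genes past the threshold, the largest changes after Dhcr7 and Acte1 were in sterol efflux. Abcg1, a transporter that moves sterols out of cells, was at 22.6, 21.2, 21.3 and 21.03 CPM in WT replicates 1 to 4 and at 10.3, 8.82, 11.1 and 8.11 CPM in KO replicates 1 to 4. Every KO value was well below every WT value, and the log2 fold change was -1.17 (SE 0.106, adjusted p = 0.000149 by edgeR). Abca1, which loads cholesterol onto apolipoproteins, was at 68.2, 75.5, 90.3 and 88.0 CPM in WT and 50.7, 44.4, 56.0 and 51.8 CPM in KO. Its groups also stood apart, with a wider spread among the WT libraries, and it fell by 0.67 on the log2 scale (SE 0.0944, adjusted p = 0.034 by edgeR). Abca1 was no longer past the threshold when any 1 of 7 libraries was left out (adjusted p 0.0503 to 0.215 by edgeR). Without WT replicate 1 its adjusted p was 0.0018 by edgeR. With a covariate for the sex genes Abcg1 was still past the threshold and Abca1 was not.

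The other 10 genes of the list of LXR targets and efflux genes were not past the threshold. At an unadjusted p under 0.05, 3 of them were higher, beside 4.96% of all genes. They were Abcg4, a relative of Abcg1 (log2 fold change 0.24), Arl4c, a small GTPase gene that responds to LXR (0.16), and Abca7, a relative of Abca1 (0.17). The receptor genes Nr1h2 and Nr1h3, for LXR beta and LXR alpha, had log2 fold changes of 0.04 and -0.01. Scd1, a fatty acid desaturase gene that responds to LXR, was at 0.21 and Lpcat3, a phospholipid acyltransferase gene, at -0.11. In all 6 members were higher and 6 lower, with a median log2 fold change of 0.02 beside 0.000205 over all tested genes, so the list as a whole had no common direction. Srebf1, another LXR target, was not in this list and was lower, with groups apart (log2 fold change -0.35, given below).

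Sterol synthesis genes were higher in KO along the whole route, each by a small amount. The 3 synthesis lists joined hold 21 genes besides Dhcr7, all of them tested: 20 were higher and 1 lower, with a median log2 fold change of 0.25. Past the threshold were 3, among them Mvd and Sqle. At an unadjusted p under 0.05, 16 of the 21 were higher, beside 4.96% of all genes. For 16 of the 21 every KO library was above every WT library, beside 2.76% of the genes of at least 1 CPM. The mean log2 CPM of the 21 genes, relative to its WT mean, was 0.06, 0.06, -0.07 and -0.05 in WT replicates 1 to 4 and 0.23, 0.25, 0.26 and 0.22 in KO replicates 1 to 4. The 4 KO libraries thus lay together, above all 4 WT libraries. DESeq2, with the adjusted p it gives, called 10 of the 16 genes for which it gave one. These lists, like the ones below, were chosen with results of these data known.

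The mevalonate enzymes make the isoprenoid units from acetyl-CoA, and all 8 were higher (median 0.29). Mvd, which makes isopentenyl diphosphate, was at 46.1, 45.4, 36.2 and 40.7 CPM in WT replicates 1 to 4 and at 61.5, 61.9, 61.0 and 54.7 CPM in KO replicates 1 to 4. The 2 groups did not overlap, and Mvd rose by 0.51 on the log2 scale (SE 0.0783, adjusted p = 0.034 by edgeR). Hmgcs1, the synthase that makes HMG-CoA, had a mean of 443 ± 48.4 CPM in WT brain and 569 ± 24.6 CPM in KO brain (SD, n = 4), a log2 fold change of 0.36 that did not pass (adjusted p = 0.164 by edgeR). Every KO library was above every WT library for Hmgcs1, and likewise for Mvk, Idi1 and Fdps (log2 fold changes 0.32, 0.23 and 0.46). Fdps has near-identical copies in the genome, which makes its counts uncertain. Acat2 and Pmvk, at 0.10 and 0.09, had overlapping groups.

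From squalene to lathosterol all 10 genes were higher (median 0.24). Sqle, the squalene epoxidase and the second control point of the route, was at 178, 166, 160 and 158 CPM in WT replicates 1 to 4 and 207, 216, 208 and 204 CPM in KO replicates 1 to 4. No KO library fell within the WT range, and Sqle rose by 0.34 on the log2 scale (SE 0.0522, adjusted p = 0.034 by edgeR). Lss, which closes the ring to lanosterol, had a log2 fold change of 0.37 (SE 0.0621) and came just short of the threshold (adjusted p = 0.0599 by edgeR). The genes Hsd17b7, Nsdhl, Tm7sf2, Fdft1, Cyp51 and Msmo1 followed at 0.30, 0.27, 0.25, 0.24, 0.18 and 0.16, all with groups that did not overlap. Erg28, a scaffold of the C4 demethylation complex, and Lbr, which carries a sterol reductase domain, were at 0.07 and 0.03 with overlapping groups.

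Among the genes of the last steps, Sc5d, which makes 7-dehydrocholesterol, the substrate of Dhcr7, was at 93.0 ± 5.25 CPM in WT brain and 108 ± 3.09 CPM in KO brain (SD, n = 4; log2 fold change 0.22, adjusted p = 0.24 by edgeR). Ebp, the sterol isomerase, was the 1 synthesis gene that was lower (log2 fold change -0.07, groups overlapping). The calls of Sqle and Mvd were less firm than their direction. With a covariate for the sex genes the adjusted p was 0.112 and 0.118 by edgeR. Leaving out any 1 of WT replicates 3 and 4 and KO replicates 1, 2 and 3 also ended both calls, and leaving out KO replicate 4 ended that of Sqle, with adjusted p values up to 0.215 for Sqle and 0.227 for Mvd by edgeR.

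**Figure D2:**
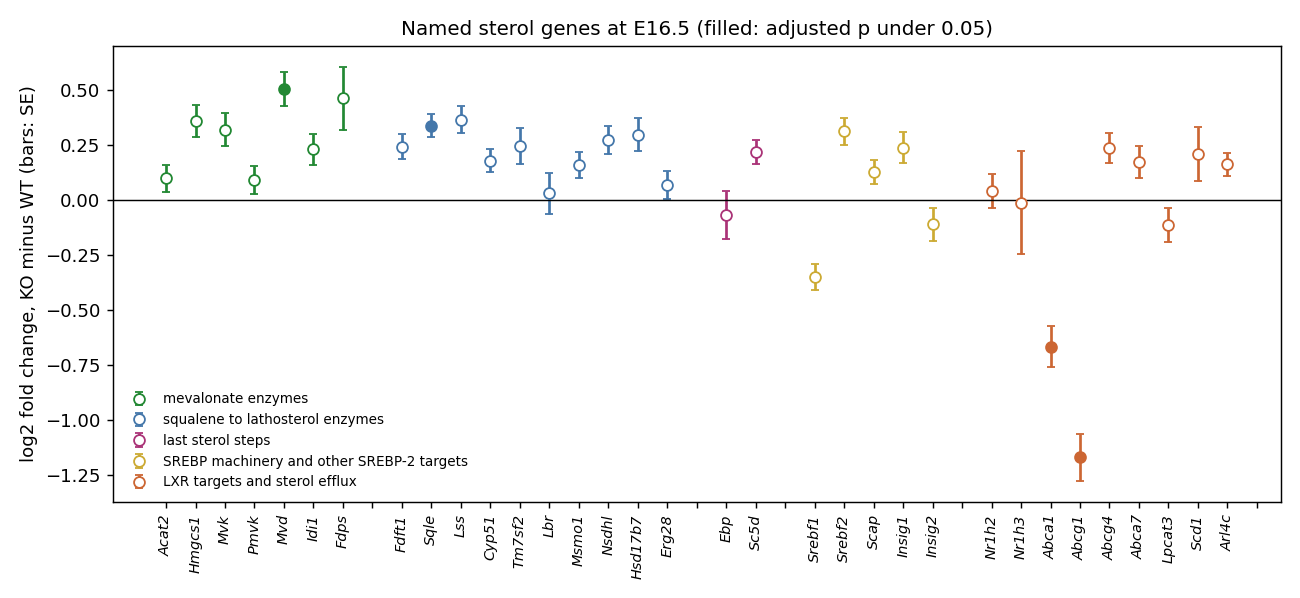
Log2 fold change, KO minus WT, with its SE for the named genes of the 5 sterol lists (horizontal axis: gene, coloured by list; filled symbols: adjusted p under 0.05 by edgeR). The synthesis genes lie between -0.07 and 0.51, with Ebp as the 1 below 0, while Abca1 and Abcg1 lie far below 0 at -0.67 and -1.17.

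In the list of SREBP machinery and other SREBP-2 targets, 9 of 13 genes were higher and 4 lower (median 0.08). Srebf2 was at 257 ± 20.5 CPM in WT brain and 320 ± 11.9 CPM in KO brain (SD, n = 4), a log2 fold change of 0.31 that did not pass (adjusted p = 0.1335 by edgeR). Srebf1, which encodes the related factor SREBP-1 and is itself an LXR target, went the other way: it was at 62.0, 54.6, 60.2 and 57.9 CPM in WT and 46.0, 48.2, 45.1 and 44.9 CPM in KO. Its groups did not overlap, and its log2 fold change of -0.35 was just short of the threshold (SE 0.0593, adjusted p = 0.0599 by edgeR). Insig1, the sterol-induced retention protein of Scap, and Scap itself were at 0.24 and 0.13 with overlapping groups, and Insig2 was at -0.11.

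Promoter sequence is shown for Mvd and Hmgcs1 as genes of the higher set and for Abca1 as one of the lower set, because SREBP-2 acts through sterol regulatory elements together with NF-Y at CCAAT boxes, and LXR through direct repeats spaced by 4 bases. The windows are the 250 bases before the RefSeq gene start (build GRCm38.p6), read 5′ to 3′ on the strand of the gene, and capitals mark matches to the sterol regulatory core, the CCAAT box and the direct repeat; matches to the GC box are in lower case. In Hmgcs1 the match to the sterol regulatory core is TCACCCCAC, 137 bases before the start, and the other capitals are CCAAT boxes. In Mvd the capitals are CCAAT boxes, starting 60 and 27 bases before the start, and in Abca1 they are a relaxed direct repeat on the opposite strand, 67 bases before the start.
Hmgcs1 (chr13:119690101-119690350, plus strand): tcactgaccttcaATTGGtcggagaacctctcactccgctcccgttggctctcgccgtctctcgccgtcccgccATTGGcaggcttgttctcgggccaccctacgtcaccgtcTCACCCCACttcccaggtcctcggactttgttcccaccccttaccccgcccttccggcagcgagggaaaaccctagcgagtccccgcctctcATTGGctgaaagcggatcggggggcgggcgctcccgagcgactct
Mvd (chr8:122443423-122443672, minus strand): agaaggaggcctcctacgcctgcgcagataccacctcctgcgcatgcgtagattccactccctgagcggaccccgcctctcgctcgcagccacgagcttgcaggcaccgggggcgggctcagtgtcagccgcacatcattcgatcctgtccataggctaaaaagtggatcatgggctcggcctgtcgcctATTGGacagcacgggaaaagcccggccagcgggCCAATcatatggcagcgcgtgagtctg
Abca1 (chr4:53159896-53160145, minus strand): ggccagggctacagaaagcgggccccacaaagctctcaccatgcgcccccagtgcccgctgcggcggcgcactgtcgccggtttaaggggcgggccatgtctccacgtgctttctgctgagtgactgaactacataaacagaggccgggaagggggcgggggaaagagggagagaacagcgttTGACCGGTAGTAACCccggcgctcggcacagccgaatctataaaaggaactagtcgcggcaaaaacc
Over windows from 250 bases before to 50 bases after the start, read on both strands, the core TCACNCCAC was in 1 of 17 promoters of 16 synthesis genes (5.88%) and in 1.24% of all 32851 promoters. The CCAAT box (CCAAT) was in 14 of the 17 (82.4%) and in 37.4% of all, and the GC box (GGGCGG) in 15 of the 17 (88.2%) and in 35.7% of all. The relaxed direct repeat, 2 copies of GGTNA with any 5 bases between them, was in 1 of 9 promoters of 8 genes of the LXR list (11.1%), in 0 of the 17 synthesis promoters and in 0.718% of all. These are matches of letters, not measured binding, and a window without a match says nothing about a factor.

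Genes of fatty acid synthesis, which SREBP-1 and SREBP-2 also drive, leaned the same way as sterol synthesis. Of 16 tested genes 13 were higher, with a median of 0.15 and 6 at an unadjusted p under 0.05, beside 4.96% of all genes. Past the threshold were 0 by edgeR's main fit and limma-voom and 3 by DESeq2. With no filter on low counts edgeR called 3, and in the 5 libraries with high Xist also 3. Unlike for the synthesis lists, the list means overlapped, with WT replicate 1 at 0.12 and KO replicate 1 at 0.10 relative to WT. Fasn, the fatty acid synthase, was at 559, 478, 541 and 530 CPM in WT replicates 1 to 4 and 644, 629, 678 and 589 CPM in KO replicates 1 to 4, without overlap (log2 fold change 0.27, adjusted p = 0.24 by edgeR). Acly, Elovl6 and Acaca, which supply, elongate and commit the acetyl units, also had groups that did not overlap, with log2 fold changes of 0.22, 0.23 and 0.22. Of the 16 genes for lipoprotein uptake and sterol transport, 13 were higher (median 0.09). Scarb1, the HDL receptor, had the smallest p among them (log2 fold change 0.28, groups apart), while Apoe, the main apolipoprotein of the brain, was at 0.01. The non-sterol isoprenoid branch, which uses the same mevalonate, had 4 of 11 higher and a median of -0.08.

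Short of the threshold, the 10 genes in each direction with the smallest p values and groups that did not overlap included 4 of the sterol genes above (Lss, Hmgcs1, Srebf2 and Srebf1). The higher ones were Jun, Lss, 4931428F04Rik, Mmp24, Hcn3, Srebf2, Sh2d3c, Hmgcs1, Shank3 and Amotl2. Jun, an immediate early transcription factor, was at 49.7, 45.8, 49.0 and 51.3 CPM in WT replicates 1 to 4 and 63.8, 61.7, 60.3 and 61.0 CPM in KO replicates 1 to 4 (log2 fold change 0.33, adjusted p = 0.0599 by edgeR). Of the 16 tested immediate early genes 12 were higher (median 0.19), Jun being the 1 with an unadjusted p under 0.05, a share near the 4.96% of all genes, and Fos was at -0.56 from low levels. Leaving out WT replicate 1, 2, 3 or 4 gave 7, 2, 1 and 2 such genes and medians of 0.31, 0.11, 0.10 and 0.15. The lower ones were Srebf1, Gapdh, Npm1, Gm14681, Hmgn5, Tceal9, Rpl30, Mir99ahg, Eif3e and Dnttip2. Npm1, the nucleolar chaperone of ribosome assembly, had a log2 fold change of -0.29 and Gapdh, a glycolytic enzyme, of -0.30 (adjusted p = 0.103 and 0.076 by edgeR). Gm14681 is a processed pseudogene, and Gapdh, Npm1 and Rpl30 have near-identical copies, so their counts are uncertain.

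Below the single-gene threshold, most genes of protein synthesis and respiration had lower values in KO. All 36 tested cytosolic ribosomal protein genes were lower in KO, with a median of -0.19 and 30 at an unadjusted p under 0.05 (beside 6.58% of all genes). Past the threshold were 0 by edgeR's main fit or limma-voom and 7 by DESeq2. With no filter on low counts edgeR called 5, and in the 5 libraries with high Xist 1. Rpl37 was at 277, 265, 271 and 291 CPM in WT replicates 1 to 4 and 223, 253, 196 and 234 CPM in KO replicates 1 to 4, without overlap (log2 fold change -0.29, adjusted p = 0.24 by edgeR). Rps6 and Rpl11 were also apart, at -0.23 and -0.26. As a whole the list did not separate the groups: its mean log2 CPM relative to WT was -0.01, -0.06, -0.03 and 0.10 in WT replicates 1 to 4 and -0.21, -0.05, -0.32 and -0.16 in KO replicates 1 to 4, with KO replicate 2 inside the WT range. Leaving out WT replicate 4 turned the 30 into 15, and leaving out KO replicate 1 or 3 into 20 and 18, while the 1141 lower genes in all became 690, 737 and 691. Ribosomal protein genes have many processed pseudogenes, so the counts of single members are uncertain.

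Of the 27 nuclear genes of the respiratory chain 26 were lower (median -0.16), with 16 at an unadjusted p under 0.05, beside 6.58% of all genes. Past the threshold were 0 by edgeR's main fit or limma-voom and 2 by DESeq2. With no filter on low counts edgeR called 2, and in the 5 libraries with high Xist also 2. Atp5j, a subunit of ATP synthase, was at 105, 115, 113 and 116 CPM in WT replicates 1 to 4 and 93.9, 99.3, 89.6 and 97.2 CPM in KO replicates 1 to 4. Its groups did not overlap (log2 fold change -0.24, adjusted p = 0.217 by edgeR). Uqcrb of complex III was at -0.25 and Ndufa2 of complex I at -0.28. The 16 became 10 without KO replicate 3. The 13 tested genes of the mitochondrial genome had a median of -0.09, with 12 lower and 0 at an unadjusted p under 0.05. That median was 0.00591 with GC offsets and -0.03 with length offsets. It was -0.00575 and -0.15 when WT replicate 2 or 3 was left out, and -0.15 when KO replicate 3 was. The glycolysis and hypoxia list showed no lean, with 8 of 17 higher and a median of -0.000877.

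Most proliferation genes had lower values in KO, and the WT libraries differed among themselves in the same genes. Of 28 mitosis genes 27 were lower (median -0.25), 10 of them at an unadjusted p under 0.05, beside 6.58% of all genes. Of 34 DNA replication genes 30 were lower (median -0.14), 8 of them at an unadjusted p under 0.05, beside the same 6.58%. Neither list had a gene past the threshold by edgeR's main fit or limma-voom (0), and DESeq2 called 1 in each list, Top2a and Rrm1. With no filter on low counts edgeR called 5 mitosis and 2 replication genes, and in the 5 libraries with high Xist 0 and 1. Top2a, the topoisomerase of dividing cells, was at 147, 152, 203 and 203 CPM in WT replicates 1 to 4 and 130, 144, 116 and 146 CPM in KO replicates 1 to 4. The groups did not overlap, but WT replicates 1 and 2 were close to the KO libraries and WT replicates 3 and 4 far above (log2 fold change -0.40, adjusted p = 0.326 by edgeR). Nusap1 of the spindle showed the same order, at 32.7, 32.01, 39.7 and 39.8 CPM in WT and 27.9, 31.0, 24.3 and 27.7 CPM in KO (log2 fold change -0.38). Rrm1, which makes deoxynucleotides, and Pcna, the replication clamp, were at -0.25 and -0.27. In bulk brain, fewer dividing cells and less of these transcripts per cell cannot be told apart.

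The mean log2 CPM of the mitosis list, relative to WT, was -0.17, -0.25, 0.22 and 0.19 in WT replicates 1 to 4 and -0.25, -0.15, -0.41 and -0.12 in KO replicates 1 to 4. WT replicates 1 and 2 thus lay within the KO range. Leaving out WT replicate 1, 2, 3 or 4 turned the 10 mitosis genes into 17, 19, 4 and 5, and leaving out KO replicate 1 or 3 into 5 and 4. The 8 replication genes became 16 without WT replicate 2. Over all tested genes, the 1141 lower ones became 1471, 1095, 1044 and 690 as WT replicates 1 to 4 were left out in turn, and 737 and 691 when KO replicate 1 or 3 was.

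Most members of 3 of the 4 neuronal function lists were higher in KO. Of 24 voltage-gated channel genes 22 were higher (median 0.14, 8 at an unadjusted p under 0.05), of 31 genes of synaptic vesicles and scaffolds 27 (median 0.11, 9), and of 22 glutamate receptor subunits 19 (median 0.18, 4). Of all genes 4.96% were higher at that p. None of the genes in these lists passed the threshold by edgeR's main fit or limma-voom (0), and DESeq2 called 2 channels and 1 synaptic gene. With no filter on low counts edgeR called 2 channels, 4 synaptic genes and 1 receptor subunit. In the 5 libraries with high Xist it called 2, 5 and 2. The list of GABA-A subunits and chloride transporters showed no lean, with 8 of 14 higher, a median of 0.03 and 0 at an unadjusted p under 0.05. Shank3, a scaffold of excitatory synapses, was at 94.3, 91.7, 79.0 and 87.6 CPM in WT replicates 1 to 4 and 114, 111, 113 and 101 CPM in KO replicates 1 to 4, without overlap (log2 fold change 0.31, adjusted p = 0.164 by edgeR). Cacna1d, a pore subunit of L-type calcium channels, was at 60.7 ± 1.43 CPM in WT brain and 71.3 ± 4.99 CPM in KO brain (SD, n = 4; log2 fold change 0.23), also without overlap. Syn3, a synapsin, was at 0.41 and the NMDA receptor gene Grin2a at 0.45, each with groups apart. For the channel list every KO library was above every WT library, with means relative to WT of 0.06, 0.04, -0.01 and -0.09 in WT and 0.21, 0.09, 0.20 and 0.07 in KO. For the synaptic list the groups overlapped, KO replicate 4 at -0.00462 lying inside the WT range of -0.14 to 0.15. Leaving out 1 library gave 4 to 15 synaptic genes at an unadjusted p under 0.05 (WT replicates 1, 3 and 4 left out in turn gave 15, 4 and 5, and KO replicates 1 and 3 gave 4 and 5), 3 to 12 receptor subunits (WT replicates 1 and 2 left out gave 8 and 12, and KO replicate 4 gave 9) and 6 to 13 channels (13 without WT replicate 2). Over all tested genes, the 860 higher ones became 1432, 1048, 799 and 595 as WT replicates 1 to 4 were left out in turn, and 517, 542 and 1054 when KO replicate 1, 3 or 4 was.

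Axon guidance genes differed by small amounts. Of 43 genes 35 were higher, with a median of 0.05 and 5 at an unadjusted p under 0.05, beside 4.96% of all genes. Over the tested genes 0 passed the threshold by edgeR, DESeq2 or limma-voom; edgeR called 1 with no filter on low counts and 2 in the 5 libraries with high Xist. With offsets for transcript length the median was 0.02. The means relative to WT were 0.06 to 0.08 in the 4 KO libraries and -0.00610 to 0.02 in the 4 WT libraries, which did not overlap. The ephrin receptor gene Epha8 was at 0.28, the plexin gene Plxna1 at 0.16 and the semaphorin gene Sema3f at 0.18, each with groups apart. The count of 5 became 3 without KO replicate 3 and 8 without WT replicate 1 or WT replicate 3.

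**Figure D3:**
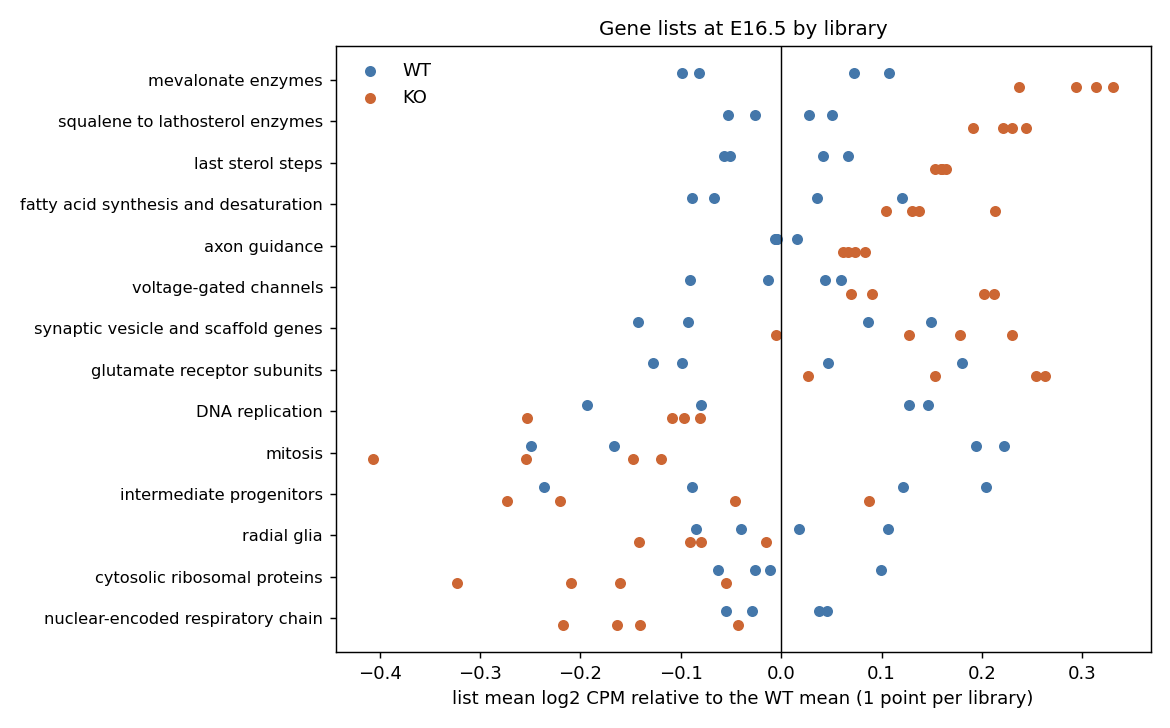
Mean log2 CPM of the genes of 14 lists in each E16.5 library, relative to the WT mean of that list (horizontal axis, log2 scale; blue WT, orange KO; 1 point per library). The groups are apart for the 3 sterol synthesis lists, axon guidance and the channels, while for mitosis, replication, synaptic and ribosomal genes KO and WT libraries overlap.

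Proliferation genes fall and synaptic genes rise as the brain develops, so each library was scored for stage. The score is the mean log2 CPM of 500 genes that rise from E14.5 to birth in WT brain minus that of 500 genes that fall, so a higher score means nearer to birth. It was 0.61, 0.56, 0.01 and -0.02 in WT replicates 1 to 4 and 0.58, 0.57, 0.75 and 0.21 in KO replicates 1 to 4. WT replicates 3 and 4 scored below every KO library, and WT replicates 1 and 2 lay among the KO libraries. The KO mean was 0.24 higher (0.53 ± 0.225 against 0.29 ± 0.339, SD, n = 4), which an exact two-sided permutation test did not separate (p = 0.257; the smallest p that 4 against 4 allows is 0.0286). The difference was 0.14 without WT replicate 3, 0.13 without WT replicate 4 and 0.34 without WT replicate 1 or KO replicate 4. On a common scaling, WT brain scored -1.33 at E14.5 and 2.05 at birth. The libraries with the lowest scores, WT replicates 3 and 4, were those with the highest mitosis means, and KO replicate 3, with the highest score, had the lowest. List members were not removed from the 500 rising and 500 falling genes, so part of this match may be built into the score. What part the stage of each embryo had in any list was not tested.

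**Figure D4:**
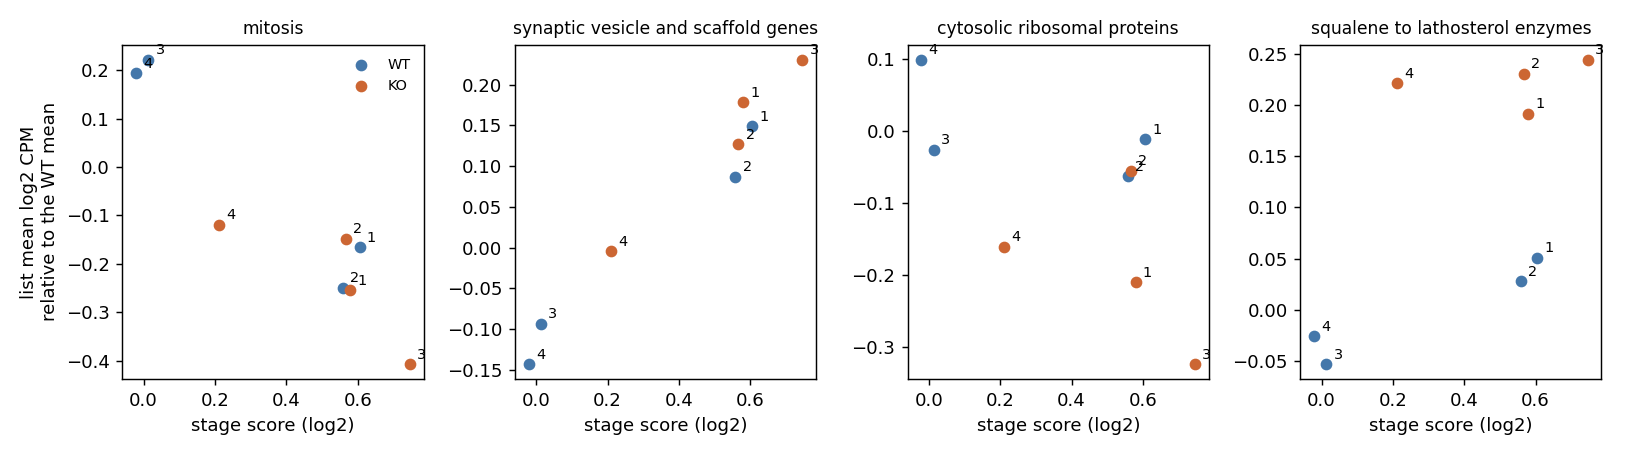
Mean log2 CPM of 4 lists, relative to WT (vertical axes, log2 scale), against the stage score of each library (horizontal axes, log2 scale; numbers are replicates). WT replicates 3 and 4, with scores of 0.01 and -0.02, are the highest for mitosis and the lowest for synaptic genes. List members were not removed from the genes of the score. For squalene to lathosterol enzymes all KO libraries lie above all WT libraries.

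No gene of the signalling lists passed the threshold (0 by edgeR, limma-voom and DESeq2). At an unadjusted p under 0.05 there were 1 of 14 Hedgehog, 0 of 12 Wnt, 2 of 18 Notch and 3 of 12 p53 genes. These Notch and p53 genes were higher in KO, beside 4.96% of all genes. Leaving out 1 library gave 1 to 2 such Notch genes and 1 to 3 such p53 genes. Gli1, a transcription factor and target gene of Hedgehog signalling, whose ligand and receptor depend on sterols, was at 10.8, 9.14, 11.7 and 11.9 CPM in WT replicates 1 to 4 and 7.20, 7.60, 8.06 and 8.97 CPM in KO replicates 1 to 4. The groups were just apart (log2 fold change -0.45, SE 0.122, adjusted p = 0.262 by edgeR). Ptch1, the receptor and another target, was at 70.5 ± 11.2 and 61.0 ± 9.58 CPM (SD, n = 4; log2 fold change -0.21), with overlap. Of the 14 Hedgehog genes 5 were higher and 9 lower (median -0.03), and Gli1 was the 1 with an unadjusted p under 0.05, a share near the 6.58% of all genes that were lower. The Hedgehog median was -0.14, 0.03 and 0.03 when WT replicate 1, 3 or 4 was left out, and slightly above 0 when KO replicate 2 or 3 was. The 12 Wnt feedback genes had a median of -0.06 and the 18 Notch and proneural genes of -0.05. Cdkn1a, the cell cycle inhibitor among the p53 targets, had a log2 fold change of 0.30 with groups apart (adjusted p = 0.261 by edgeR), and the 12 p53 targets had a median of -0.00446. The lists for the unfolded protein response, NRF2 and ferroptosis defence, and glucocorticoid targets had medians of 0.06, 0.02 and 0.01.

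Cell type lists gave few genes below an unadjusted p of 0.05 and none past the threshold (0 by edgeR's main fit and limma-voom, 1 by DESeq2, the striatal gene Isl1). With no filter on low counts edgeR called Isl1, 2 hypothalamic genes and 1 dopamine neuron gene. In the 5 libraries with high Xist it called genes in several lists. Among them were 2 deep-layer and 3 upper-layer genes that were higher and 2 hypothalamic genes that were lower. Of 16 radial glia markers 14 were lower (median -0.07). Slc1a3, a glutamate transporter, at -0.15 was the 1 at an unadjusted p under 0.05, a share near the 6.58% of all genes that were lower. Of 12 intermediate progenitor markers 10 were lower (median -0.13), yet Eomes, the marker that defines them, was at 79.3 ± 20.2 CPM in WT brain and 77.7 ± 7.53 CPM in KO brain (SD, n = 4). Markers of deep-layer neurons, upper-layer neurons and GABA interneurons had medians of 0.06, 0.04 and -0.03, each with 0 genes at an unadjusted p under 0.05. In the 5 libraries with high Xist these medians were 0.19, 0.25 and 0.15. Without WT replicate 2 the first was -0.02 and the second -0.07, and without WT replicate 1 they were 0.12 and 0.14. Astrocyte, microglia and endothelial markers had medians of 0.05, -0.08 and -0.000877, again with 0 such genes. Among striatal markers Isl1, a transcription factor of striatal projection neurons, was lower at 39.8 ± 3.47 CPM in KO against 50.4 ± 5.59 CPM in WT (SD, n = 4; log2 fold change -0.34), with overlap, while the median of the 12 markers was 0.07.

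Red blood cell genes leaned lower in KO. Of 8 tested genes 7 were lower (median -0.72), 4 at an unadjusted p under 0.05, beside 6.58% of all genes. The alpha globin gene Hba-a1 was at 294, 219, 426 and 448 CPM in WT replicates 1 to 4 and 207, 223, 174 and 258 CPM in KO replicates 1 to 4. WT replicates 3 and 4 were high, and WT replicate 2 lay within the KO range (log2 fold change -0.69, adjusted p = 0.396 by edgeR). Slc4a1, the anion exchanger of red cells, was at -0.83 and Alas2, the haem synthesis enzyme of red cells, at -0.75. The sum of the list was 793.5 to 1554 CPM in WT and 642.4 to 897.4 CPM in KO. Leaving out WT replicate 3 or 4 or KO replicate 1 or 3 turned these 4 genes into 1, KO replicate 2 into 2 and WT replicate 2 into 6. The part of blood in the brain samples in these values was not tested.

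Regional markers varied widely among libraries of both genotypes. WT replicate 1 was low for dopamine neuron, serotonin neuron and cerebellar markers (means of -1.35, -1.50 and -1.09 relative to WT). WT replicate 2, at 0.84, 1.315 and 0.81, was above every KO library in each of these lists. The 4 KO libraries were between 0.45 and 0.80, 0.14 and 1.11, and -0.09 and 0.56, inside the WT range. Hypothalamic markers were lower in KO for all 10 tested genes (median -0.56), 1 of them at an unadjusted p under 0.05, beside 6.58% of all genes. However, WT replicate 3 was lower still than all but KO replicate 2, with list means of -1.045 and -1.06 relative to WT. The median was -0.36 and -0.30 without WT replicate 2 or 4 and -0.84 without WT replicate 3, with 1, 0 and 5 genes at an unadjusted p under 0.05, and 3 genes without WT replicate 1. Over all tested genes, 1095, 690, 1044 and 1471 were lower at that p without WT replicate 2, 4, 3 or 1. In the 5 libraries with high Xist the hypothalamic median was -1.03. Avp, the vasopressin gene, showed this spread, with 9.42, 9.02, 0.495 and 9.08 CPM in WT replicates 1 to 4 and 1.51, 1.72, 5.40 and 1.22 CPM in KO replicates 1 to 4. Of the other tissues, the 7 tested genes of the skin and epithelium list summed to at most 53.8 CPM and the 2 tested pituitary genes to at most 3.81 CPM. The skin keratin genes Krt5 and Krt14 were left out of the test by the filter on low counts, and KO replicate 4 held 363 and 167 counts of them, beside at most 18 and 5 in any other library.

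The direction of change also went with the length and base composition of the transcript. Transcript length and GC content had Spearman correlations of 0.23 and 0.35 with the log2 fold change over 15945 genes, as a description over genes that share the same 8 libraries. Genes higher at an unadjusted p under 0.05 had a median length of 4632 nucleotides and GC content of 55.1%, lower ones 2445 nucleotides and 44.9%, and all tested genes 3163.5 nucleotides and 49.55%. In the highest of 4 equal bins by GC content, KO libraries had median log2 values relative to WT of 0.03 to 0.10 and WT libraries of -0.04 to 0.05, and the genotypes overlapped there, KO replicate 4 being below WT replicate 1. Ribosomal protein genes are short (median 1124 nucleotides), and with offsets for length their median moved from -0.19 to -0.13, with 19 genes at an unadjusted p under 0.05 in place of 30. For the respiratory chain genes (1376.5 nucleotides) it moved from -0.16 to -0.09, with 7 in place of 16. Channel genes are long (8384.5 nucleotides), and their median went from 0.14 to 0.09. The median of the mevalonate enzymes was 0.28 with length offsets and 0.29 with GC offsets, beside 0.29 without, and that of the squalene to lathosterol enzymes 0.24 and 0.23, beside 0.24. Srebf1 was past the threshold with either offset (adjusted p = 0.0438 for length and 0.00769 for GC by edgeR), as it also was without WT replicate 2 (0.0318), and Mvd was not with GC offsets (0.07).

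**Figure D5:**
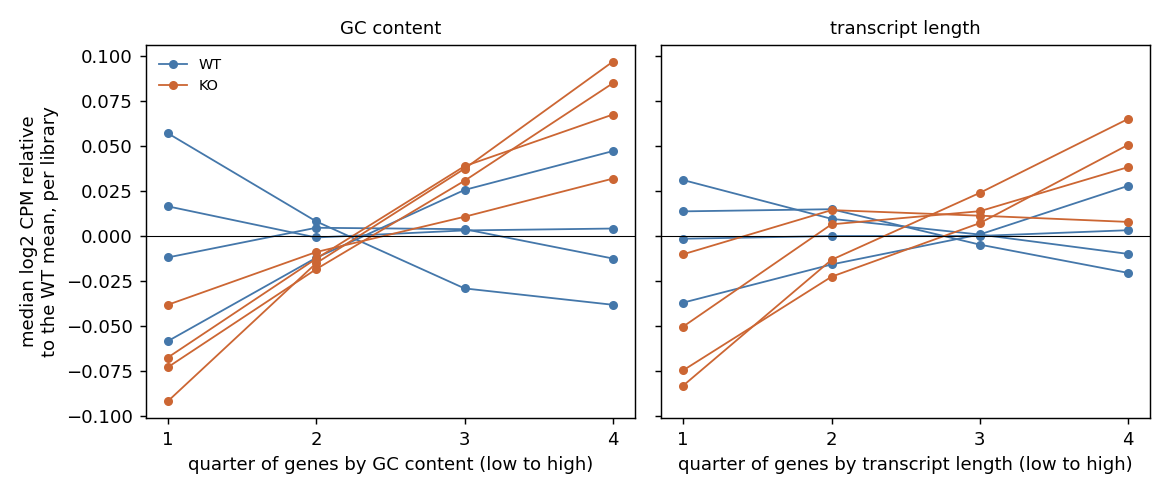
Median log2 CPM relative to WT (vertical axis) of genes in 4 equal bins by GC content (left) and transcript length (right), for each E16.5 library (blue WT, orange KO; 1 line per library). Each KO line is higher in the highest than in the lowest bin in both panels, and the WT lines differ among themselves.

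Whether the KO difference at E16.5 departs from that at the other stages was tested in all 32 libraries as the KO effect at E16.5 minus the mean KO effect at E12.5, E14.5 and birth. Of 19541 genes 0 passed the threshold by edgeR (0%), and 1824 had an unadjusted p under 0.05 (9.33%); limma-voom with weights for each group gave 102. For Abcg1 the contrast was 0.37, its log2 fold change being -1.16 at E16.5 and -1.57, -1.66 and -1.38 at E12.5, E14.5 and birth (adjusted p = 0.421 by edgeR). For Dhcr7 it was 0.34, with -1.88 at E16.5 beside -1.61, -2.40 and -2.63 (adjusted p = 0.484 by edgeR). In this fit the mitosis list had a median of -0.25 at E16.5 and of -0.01, -0.09 and -0.02 at the other 3 stages, and the squalene to lathosterol list 0.25 beside 0.52, 0.36 and 0.31. No difference between stages was shown for any gene by edgeR, and the lists were not tested.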

How the data were processed

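Polyadenylated RNA from E16.5 brain was measured in 4 WT and 4 KO libraries. The authors deposited whole-number read counts per gene symbol, with no normalization; HISAT2, SAMtools, featureCounts and DESeq2 and the build mm10 are named, per the submitters' processing notes, without versions. Strand settings and filters are not given in the sources used here. Libraries were grouped by their labels.

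Genes were kept with edgeR's filterByExpr (minimum count 10, minimum total 15), scaled with TMM and tested with edgeR's robust quasi-likelihood test (edgeR 4.0.16, limma 3.58.1, DESeq2 1.42.0, R 4.3.3), with Benjamini-Hochberg adjustment over all 17328 tested genes and a threshold of 0.05. The test was tested on simulated data. SDs are over 4 libraries. List means are of log2 CPM with a prior count of 2. The 12 pairs of libraries within a group differed by more than sampling noise (chi-square per degree of freedom 3.25 to 43.1). The pairs with WT replicate 1 were at 41.8 to 43.1 and the others at 3.25 to 14.7.

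The members, lists and tests were chosen with earlier results of these data known. Genes named are Dhcr7, those past the threshold, the 10 in each direction just short of it with groups that did not overlap and a mean of at least 1 CPM, any member of the 5 sterol lists, the sex genes, and up to 4 members of each other list with the smallest p. Nadsyn1, Apoe, Eomes, Avp and C4b fall outside this and were chosen after their values were seen. Some genes that the rule names are not reported here. Alternatives covered scaling, filters, covariates, offsets, other tools, all 32 libraries in 1 fit, and leaving out each library. Promoter windows are from RefSeq, build GRCm38.p6, and gene coordinates, lengths and GC content from GENCODE M21.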

Additional observations from a re-analysis of the deposited data

Results flagged for a closer look

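Of 292 groups of 4 libraries examined, 20 held a library whose gap to the others was above Dixon's critical value, and chance flags about 1 in 20 groups. In WT replicate 1, Abcg1 was at 22.6 CPM (the other 3 WT libraries 21.03 to 21.3), Abca7 at 35.4 CPM (33.6 to 33.9) and Fos at 4.27 CPM (1.73 to 1.87). In WT replicate 2, Sc5d was at 100.9 CPM (89.98 to 90.6). In WT replicate 3, Erg28 was at 41.7 CPM (47.1 to 47.9), Slc1a3 at 179 CPM (193.7 to 195) and Avp at 0.495 CPM (9.02 to 9.42). In WT replicate 4, Rpl11 was at 622 CPM (541 to 550.5).

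Among the KO libraries, Avp was at 5.40 CPM in replicate 3 (the other 3 KO libraries 1.22 to 1.72). KO replicate 4 stood apart for Mvd at 54.7 CPM (61.0 to 61.8), Mmp24 at 127 CPM (145.2 to 146.3), Alas2 at 14.4 CPM (9.62 to 10.4) and Xist at 5.62 CPM (1429 to 1722).

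For list means of log2 CPM relative to WT, WT replicate 1 stood apart for glucocorticoid targets at 0.12 (the other WT libraries -0.05 to -0.03) and the 2 pituitary genes at -1.36 (0.37 to 0.56). WT replicate 2 did so for the 2 hindbrain genes at 3.16 (-1.41 to -0.86), and WT replicate 3 for axon guidance at 0.0156 (-0.00610 to -0.00438). KO replicate 1 did so for endothelial markers at -0.10 (the other KO libraries 0.00348 to 0.02), KO replicate 3 for DNA replication at -0.25 (-0.11 to -0.08) and KO replicate 4 for Wnt feedback genes at 0.25 (-0.13 to -0.08). Outside the tested comparisons, the skin keratin genes Krt5 and Krt14 had 363 and 167 counts in KO replicate 4, beside 0 to 18 and 0 to 5 counts in the other 7 libraries.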

How the results depend on the processing

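No result changed direction while past its threshold. The 8 genes past the threshold became 233 with no filter on low counts, 150 with DESeq2 (of the genes it gave an adjusted p), 5 without the robust option, 4 with a sex-gene covariate, 3 with all 32 libraries in 1 fit and 3 to 14 when 1 library was left out. In the 5 libraries with Xist above 100 CPM and Ddx3y below 1 CPM, an alternative chosen after seeing the data, it was 354. With a covariate for ribosomal RNA 8 genes passed, 7 of them shared with the main fit. That covariate gave 2758 genes at an unadjusted p under 0.05 in place of 2001. With a replicate block the count was 5; replicate numbers share only a number, since same-numbered libraries correlated between -0.178 and 0.199 in their deviations and 1 WT library correlated best with its own number. Of the list medians, LXR targets went from 0.02 to 0.0834 in the Xist-high libraries and to between 0.00348 and 0.0933 leaving out 1 library. The isoprenoid branch went from -0.08 to -0.0172 with GC offsets (chosen after seeing the data) and to between -0.0915 and -0.0287 leaving out 1 library. Axon guidance went from 0.05 to 0.068 with the replicate block, 0.073 with the sex-gene covariate, 0.0221 with length offsets, 0.0606 with GC offsets, 0.0853 in the Xist-high libraries and 0.0383 to 0.0866 leaving out 1 library. Subplate markers went from 0.16 to 0.0471 in the Xist-high libraries and 0.0359 to 0.189 leaving out 1 library, and hindbrain markers, 2 genes, from 0.32 to between -0.25 and 3.21, the latter without WT replicate 2. In the Xist-high libraries the interferon list went from 0.25 to 0.54, GABA interneuron markers from -0.03 to 0.15 and striatal from 0.07 to 0.33. Thalamic markers went there from 0.07 to -0.19 and retinal from -0.79 to -2.08. Upper-layer markers went from 0.04 to 0.25, deep-layer from 0.06 to 0.19 and dopamine from 0.30 to -0.30. Serotonin markers went from 0.23 to -0.43 and the Hedgehog list from -0.03 to -0.14. The interferon list summed to only 22.0 to 32.7 CPM in WT and 25.0 to 31.8 CPM in KO. In the main fit 10 of its 11 tested genes were higher. At an unadjusted p under 0.05, 0 were higher and 1 lower, beside 4.96% and 6.58% of all genes. The contrast with the other stages gave 102 genes with limma-voom and weights by group, against 0. The cause was not tested for any of these. Depth limits genes near 0.168 to 0.215 CPM, the level that a count of 0 allows.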

Other observations

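C4b, a complement component gene in no list, was at 0.542, 0.424, 0.433 and 0.134 CPM in WT replicates 1 to 4 and 0.837, 0.932, 2.47 and 2.37 CPM in KO replicates 1 to 4. Every KO library was above every WT library, and KO replicates 3 and 4 were well above the other 2. The log2 fold change was 2.09 (SE 0.463) and did not pass the threshold (adjusted p = 0.217 by edgeR's quasi-likelihood test). The gene was chosen after its values were seen.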
